A study of Mus musculus with 2 samples.

Results

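The chemokine receptor genes Ccr2, Ccr4, Ccr6, Ccr9, Cxcr3, Cxcr5 and Cxcr6, 7 of the 19837 genes counted, were followed in single T cells of the mouse spleen. They were matched by symbol, and they were selected with earlier results on these same molecule counts in view, so their levels and ratios below are a description. The cells came from female C57/BL6N mice that received saline, or 6 mg/kg of remimazolam 4 h or 8 h before the spleen was taken. Remimazolam is a short-acting benzodiazepine, a class of drugs that act on the GABA(A) receptor. Each group held 3 mice, and 1 sample tag, a barcode carried by an antibody, marked the cells of all of them. The 3 pools were captured together on the BD Rhapsody single-cell platform. The labels place the saline group at 0 h, so time after injection and remimazolam cannot be told apart from each other. They describe the sorted cells once as CD45+CD3+CD5+ and once as CD45+.

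Each treatment was therefore 1 sample, the spread between mice cannot be seen, and no test between treatments was made. T cells, gated on T cell receptor and CD3 genes, made up 97.3% of the saline pool, 96.4% of the 4 h pool and 96.6% of the 8 h pool. That left 5123, 5236 and 5237 T cells with 13940809, 14292972 and 14239845 molecules, a molecule being a distinct captured transcript. Levels are given as molecules of a gene per 1000000 molecules of the cells named (CPM). Brackets hold exact 95% intervals, which cover counting error only. Those of CPM and of CPM ratios take each molecule as independent, although a cell can hold several. No cell barcode was shared between pools. Markers of other cells in the T cell gate moved in places: the sum of 4 plasma cell genes was 41.3, 69.2 and 45.2 CPM in the saline, 4 h and 8 h pools, of which Jchain gave 1.22, 27.2 and 1.26. The sum of 6 natural killer cell genes was 71.2, 70.0 and 82.5 CPM, and that of 4 neutrophil genes was 0.789, 1.40 and 2.88. Their part in the results was not tested.

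Chemokine receptors are G protein-coupled receptors that steer leukocytes along gradients of secreted chemokines, into lymphoid organs, inflamed tissue and barrier sites. Naive T cells rely on Ccr7, while several of the receptors studied here are best known from cells that have met antigen or that leave the thymus in an effector-like state. Ccr2 binds the monocyte chemoattractant Ccl2. Ccr4 binds Ccl17 and Ccl22 and is known from skin-homing, type 2 helper and regulatory T cells. Ccr6 binds Ccl20 and marks T cells with a type 17 program and B cells. Ccr9 binds Ccl25 and serves the thymus and small intestine. Cxcr3 binds the interferon-induced ligands Cxcl9 and Cxcl10, Cxcr5 leads cells to B cell follicles along Cxcl13, and Cxcr6 binds Cxcl16 and retains cells in liver and other tissues.

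On GRCm38 with GENCODE M21, 3 of the receptor genes lay close together on chromosome 9. Ccr9 spanned 123678439 to 123784330, Cxcr6 spanned 123806475 to 123811760 and Ccr2 spanned 124101950 to 124113557, all on the plus strand. Ccr4 (114490316 to 114504916) and Cxcr5 (44511787 to 44561877) lay elsewhere on chromosome 9, both on the minus strand. Ccr6 lay on chromosome 17 (8236043 to 8257141, plus strand) and Cxcr3 on chromosome X (101731535 to 101734269, minus strand). Cxcr6 sat within an intron of Fyco1 on the opposite strand, and the last exon of Cxcr5 overlapped an exon of Bcl9l on the opposite strand. The sources used here do not say whether the counting used strand.

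Promoter sequence was at hand for 6 of the 7 genes, from RefSeq on GRCm38.p6, and was searched on both strands over the 250 bases before each start for short cores tied to T cell fate factors. Matches are given for TCACAC, of T-box factors such as T-bet, and TGTGGT, of RUNX factors. The 2 stretches below, cut to the bases upstream of any annotated exon, are shown because each holds a match, in capitals, in a receptor whose level is followed below.
Cxcr6, chr9:123806227-123806474, plus strand: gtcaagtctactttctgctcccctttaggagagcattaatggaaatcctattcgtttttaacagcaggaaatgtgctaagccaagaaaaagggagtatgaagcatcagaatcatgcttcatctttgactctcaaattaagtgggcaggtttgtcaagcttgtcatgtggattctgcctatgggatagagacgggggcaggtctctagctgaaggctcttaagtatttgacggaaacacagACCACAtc
Cxcr3, chrX:101734270-101734397, minus strand: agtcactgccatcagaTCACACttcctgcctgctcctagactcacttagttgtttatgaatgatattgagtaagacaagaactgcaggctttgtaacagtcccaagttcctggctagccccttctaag
The capitals mark the reverse complement of the RUNX core in Cxcr6, 10 to 5 bases before the start, and the T-box core in Cxcr3, 234 to 229 bases before it. Cxcr3 held a further RUNX match 110 to 105 bases before the start, outside the stretch shown. Thus 1 of 6 receptors held the T-box core and 2 held the RUNX core. Over 32851 mouse promoters of the same length the shares were 12.3% and 14.0%. A match of 6 letters is a description of the sequence and not evidence of binding.

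The depth behind each receptor differed widely. Ccr9 stood at 122 CPM [118, 125] over the 3 pools together, with a molecule in 17.0% of T cells. Cxcr6 stood at 72.5 CPM [70.0, 75.1] and Cxcr3 at 42.7 CPM [40.7, 44.7]. Ccr2 stood at 28.4 CPM [26.8, 30.02], and Cxcr5 at 14.2 CPM [13.1, 15.4]. Ccr4 had 6.73 CPM [5.98, 7.56], and Ccr6 had 64 molecules in 50 of 15596 T cells. These are captured molecules and were not divided by transcript length, so they set the counting precision of each gene and do not rank the genes by transcript number.

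Ccr2, Cxcr6 and Cxcr3 were higher 4 h after remimazolam than in saline by the fold used here, at least 25% higher CPM with at least 50 molecules in both pools together. These were 3 of the 6 members with enough molecules, and none was lower by a ratio of 0.8 or less. Over all 10314 genes with enough molecules, 6.07% were higher and 3.0% were lower by the same folds. The members' median ratio was 1.30, beside 1.01 over all genes. At 8 h, 2 of 7 members were higher and 1 was lower, where 4.64% and 3.40% of 10298 genes were. The median ratio at 8 h was 1.12, beside 0.999 over all genes. Both comparisons share the saline pool, so its own error enters each of them, and the members were picked with these ratios known.

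Ccr2 had the highest ratio to saline at 4 h. It had 287 molecules in the saline pool, 496 at 4 h and 422 at 8 h, which gave 20.6 CPM [18.3, 23.1], 34.7 [31.7, 37.9] and 29.6 [26.9, 32.6]. Both remimazolam pools lay above saline with intervals that did not overlap it, and their own intervals overlapped each other. The ratio to saline was 1.69 [1.45, 1.96] at 4 h and 1.44 [1.24, 1.68] at 8 h. The share of T cells with a Ccr2 molecule was 2.40%, 3.72% and 3.15%, whereas the molecules per positive cell were 2.33, 2.54 and 2.56, so the difference lay mainly in the number of positive cells. Among B cells, which should lack Ccr2, 3 of 454 (0.661%) had a molecule, at a median of 2278.5 molecules per cell against 2535, 2515.5 and 2516 in the T cells of the 3 pools.

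Cxcr6 was highest at 4 h. It had 859, 1235 and 985 molecules in the saline, 4 h and 8 h pools, or 61.6 CPM [57.6, 65.9], 86.4 [81.7, 91.4] and 69.2 [64.9, 73.6]. The 4 h pool stood apart from the other pools, while the saline and 8 h intervals overlapped slightly. The ratio to saline was 1.40 [1.28, 1.53] at 4 h and 1.12 [1.02, 1.23] at 8 h. A molecule was found in 10.5%, 13.5% and 10.9% of T cells, against 1.32% of B cells.

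Cxcr3 was also highest at 4 h. Its 496, 709 and 608 molecules gave 35.6 CPM [32.5, 38.9] in saline, 49.6 [46.0, 53.4] at 4 h and 42.7 [39.4, 46.2] at 8 h. The 3 pools were ordered saline, 8 h, 4 h, and only the 8 h and 4 h intervals touched. The ratio was 1.39 [1.24, 1.57] at 4 h and 1.20 [1.06, 1.35] at 8 h. Positive T cells made up 6.34%, 8.56% and 7.49%, against 2.20% of B cells.

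Ccr9 was moderately higher at 4 h alone. The saline, 4 h and 8 h pools held 1585, 1966 and 1614 molecules, or 114 CPM [108, 119], 138 [132, 144] and 113 [108, 119]. The 4 h pool was above both others, and the saline and 8 h pools were level. Its ratio of 1.21 [1.13, 1.29] at 4 h lay under the fold used, and that at 8 h was 0.997 [0.930, 1.07].

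Ccr4 was the receptor that was lower at 8 h. It had 107 molecules in saline, 118 at 4 h and 61 at 8 h, or 7.68 CPM [6.29, 9.27], 8.26 [6.83, 9.89] and 4.28 [3.28, 5.50]. The saline and 4 h pools overlapped, and the 8 h pool lay below both. The ratio was 1.08 [0.821, 1.41] at 4 h and 0.558 [0.401, 0.771] at 8 h. Against 4 h the 8 h ratio was 0.519 [0.375, 0.713], which made Ccr4 the 1 member of 6 lower by the fold in that comparison, where 5.13% of 10346 genes were lower and 2.90% higher. No member with enough molecules was higher.

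Ccr6 rested on few molecules and Cxcr5 was level. Ccr6 had 19, 13 and 32 molecules, and the intervals of its ratios to saline, 0.667 [0.303, 1.42] at 4 h and 1.65 [0.907, 3.08] at 8 h, both included 1. Its 8 h ratio passed the fold with 51 molecules in all. The 8 h pool was above the 4 h pool, at a ratio of 2.47 [1.26, 5.13] on 45 molecules, too few to enter the counts above. Cxcr5 had 191, 208 and 205 molecules, or 13.7, 14.6 and 14.4 CPM, with ratios of 1.06 [0.869, 1.30] and 1.05 [0.859, 1.29]. For Cxcr5 a difference of up to 1.30 times at 4 h lay within counting error.

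**Figure D1:**
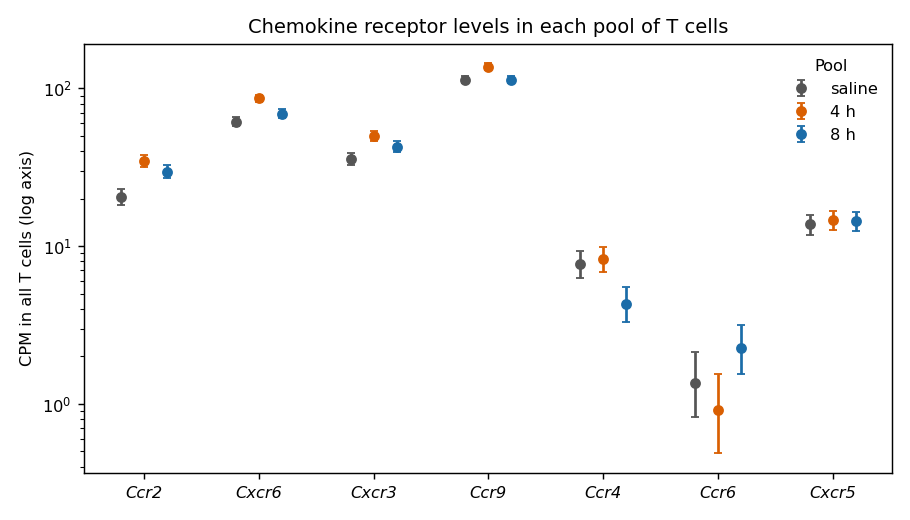
Level of each receptor in the T cells of the saline, 4 h and 8 h pools, in CPM, with exact 95% Poisson intervals as bars. Ccr2, Cxcr6 and Cxcr3 are highest in the 4 h pool, and Ccr4 is lowest in the 8 h pool at 4.28 CPM.

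The T cells were next divided into subsets on molecules of lineage genes, none of which is a receptor studied here. Cd4, Cd8a with Cd8b1, Foxp3, Trdc, and Klrb1c or Zbtb16 set the lineage. Short lists of effector genes then divided CD4 and Foxp3 cells (S100a4, Itgb1, Lgals1, Maf, S100a6, and a follicular helper list with Bcl6, Pdcd1 and others) and CD8 cells (Ccl5, Il2rb, Eomes, Nkg7, Gzmm, Itgb1). Cells with at least 2 list genes are called CD4 memory, follicular helper-like or effector-type Foxp3+ cells. The same step did not isolate CD8 memory cells: of 2501 CD8 cells with 2 or more list genes, 17.8% had a molecule of Cd44 and 30.3% had one of Ccl5. These cells are therefore named by their gate. Among 317 Trdc+ cells, gated for the gamma delta receptor constant gene, 47.3% also had a molecule of Trac, the alpha constant gene, so this gate was mixed too.

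The NKT-like gate held T cells with Klrb1c, which encodes NK1.1, or Zbtb16, which encodes the factor PLZF of innate-like T cells. It took 54 cells in saline, 100 at 4 h and 67 at 8 h, or 1.05% [0.793, 1.37], 1.91% [1.56, 2.32] and 1.28% [0.993, 1.62] of T cells. The 4 h share was the highest, and its interval overlapped that of the 8 h share. Of its 221 cells 96.4% had Trac, 38.9% had Cd4 and 65.2% had Ccl5. Natural killer cell markers were present in part: Klrk1 in 38.5% of its cells, Prf1 in 8.60%, Gzma in 5.88%, Ncr1 in 4.07%, Klra8 in 1.36% and Klra4 in 0.452%.

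Ccr2, Cxcr3 and Cxcr6 all had their highest level in the NKT-like gate. Cxcr6 reached 848 CPM [779, 922] there, with a molecule in 147 of 221 cells (66.5%). Ccr2 reached 454 CPM [404, 508], in 51.1% of the cells, and Cxcr3 reached 274 CPM [235, 317], in 49.8%. These levels were 11.7, 16.0 and 6.42 times those over all T cells. By share of positive cells at a fixed 1500 molecules per cell they were 7.49, 17.8 and 7.52 times. A mean over pools hides a spread, since the 3 pools ranged from 508 to 1057 CPM for Cxcr6, from 306 to 626 for Ccr2 and from 196 to 330 for Cxcr3.

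Below the NKT-like gate the 3 receptors parted. Ccr2 came next in effector-type Foxp3+ cells at 220 CPM [188, 256] and in CD4 memory cells at 114 CPM [97.2, 134], and it was at 1.86 CPM in naive-type CD4 cells. Cxcr3 came next in CD4 memory cells at 182 CPM [160, 206], follicular helper-like cells at 141 CPM [116, 171] and effector-type Foxp3+ cells at 113 CPM [90.2, 139], and each of these intervals overlapped the next. Cxcr6 was at 142 CPM [117, 170] in Trdc+ cells and between 92.7 and 116 CPM in the 3 CD8 gates, while effector-type Foxp3+ cells had only 19.4 CPM [10.9, 32.0]. Naive-type CD4 cells had 3.41 CPM of Cxcr6. Fyco1, the gene around Cxcr6, ranged only from 32.3 to 74.6 CPM over the same T cell subsets and stood at 39.6 CPM in the NKT-like gate.

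Over the 3 pools together Ccr4 and Ccr6 were both highest in effector-type Foxp3+ cells, the regulatory T cells with memory genes. Ccr4 was at 123 CPM [99.5, 150] there, with a molecule in 27.2% of cells, and at 62.3 CPM [49.8, 77.1] in CD4 memory cells. Foxp3+ cells outside the effector-type gate had 11.1 CPM [5.71, 19.3] of Ccr4. In the CD8 cells Ccr4 was near 0. It had 1 molecule in 1278 cells with no list gene and 4 in 2501 cells with 2 or more. The 2201 cells with 1 list gene had none. With a zero count taken to allow up to 3, that is up to 0.505 CPM or 0.136% of the cells. Ccr6 had 18 molecules in 14 of 228 effector-type Foxp3+ cells, or 23.3 CPM [13.8, 36.8], and its interval overlapped that of the CD4 memory cells at 8.07 CPM [4.03, 14.4]. The pools of effector-type Foxp3+ cells differed, with 6 molecules of Ccr6 in saline, none at 4 h and 12 at 8 h, or 27.8, 0 and 42.7 CPM. At 4 h it was therefore not the highest subset, since the other Foxp3+ cells had 5.17 CPM on 2 molecules.

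Cxcr5 was highest in follicular helper-like CD4 cells, whose gate used Bcl6, Pdcd1, Il21, Tox2, Izumo1r and Ascl2. It was at 131 CPM [106, 159] there, with a molecule in 22.5% of cells. Effector-type Foxp3+ cells came next with 71.2 CPM [53.6, 92.7], then CD4 memory cells with 30.1 CPM [21.6, 40.8]. Bcl9l, whose exon overlaps the end of Cxcr5, had a different order, with 117 CPM in follicular helper-like cells and 279 CPM in CD8 cells with no list gene, where Cxcr5 was at 2.63 CPM.

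Ccr9 had its highest levels in CD8 cells. It was at 325 CPM [311, 340] in CD8 cells with 1 list gene and 320 CPM [300, 341] in those with none, which cannot be ordered, and at 153 CPM [145, 162] in those with 2 or more. Trdc+ cells had 216 CPM [185, 251] and the NKT-like gate had 177 CPM [146, 212], which overlapped each other. In naive-type CD4 cells Ccr9 was at 11.8 CPM [9.28, 14.7]. A molecule was present in 41.7% of CD8 cells with no list gene and in 2.64% of B cells.

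**Figure D2:**
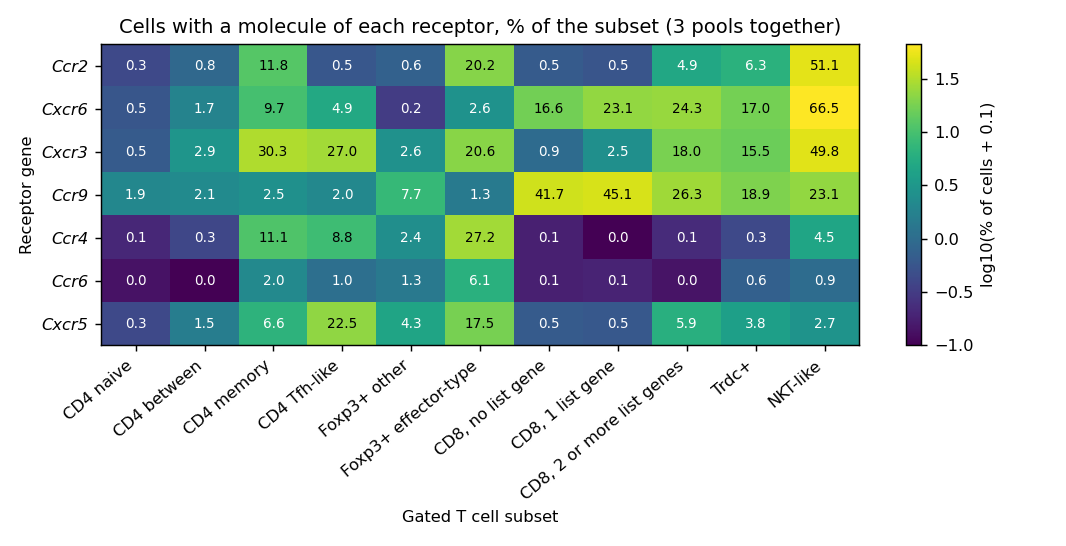
Share of the cells of each gated T cell subset (columns) with a molecule of each receptor (rows), in percent, over the 3 pools together, with colour on a log10 scale. Ccr2, Cxcr6 and Cxcr3 peak in the NKT-like gate, Ccr4 and Ccr6 in effector-type Foxp3+ cells, Cxcr5 in follicular helper-like cells and Ccr9 in CD8 cells.

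A division of all gated CD8 cells by a Ccl5 molecule, chosen after their values were seen, set the receptors apart more sharply. Ccl5 encodes a chemokine that CD8 cells store after activation. The 784 CD8 cells with Ccl5 had 147 CPM [134, 162] of Cxcr3, against 19.9 CPM [17.7, 22.3] in the 5196 cells without it. Ccr2 was at 64.0 CPM [55.1, 73.8] with Ccl5 and 5.20 CPM [4.09, 6.50] without, and Cxcr5 was at 31.8 and 7.59 CPM. Ccr9 went the other way, at 27.4 CPM [21.7, 34.1] with Ccl5 and 283 CPM [275, 292] without. Cxcr6 differed little, at 86.2 CPM [75.9, 97.5] with Ccl5 and 107 CPM [102, 113] without. Cells with Ccl5 were deeper, at a median of 3507.5 molecules against 2676, which bears on shares of positive cells and not on CPM.

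Within CD8 cells Cxcr3 was level across pools. With Ccl5 it was at 147, 146 and 149 CPM in saline, 4 h and 8 h, with a 4 h ratio of 0.987 [0.775, 1.26]. Without Ccl5 it was at 19.8, 19.7 and 20.2 CPM, with a 4 h ratio of 0.994 [0.743, 1.33]. The Cxcr3 difference over all T cells was thus not seen in CD8 cells at this depth. Ccr9 in CD8 cells without Ccl5 was 273, 303 and 272 CPM, a ratio of 1.11 [1.03, 1.19] at 4 h and 0.997 [0.923, 1.08] at 8 h. Cxcr6 in the same cells was 99.8, 114 and 108 CPM, with ratios of 1.14 [1.01, 1.29] and 1.08 [0.954, 1.23]. In CD8 cells with Ccl5 it was at 102, 85.1 and 73.1 CPM, and the interval of the 8 h ratio lay below 1, with ratios of 0.831 [0.612, 1.13] and 0.714 [0.519, 0.980]. Ccr2 in CD8 cells without Ccl5 was low in every pool, at 2.69, 5.13 and 7.85 CPM, with ratios of 1.91 [0.946, 4.04] at 4 h and 2.92 [1.52, 5.99] at 8 h on 13, 26 and 37 molecules. In those with Ccl5 its ratios were 1.20 [0.844, 1.72] and 0.790 [0.532, 1.17].

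In the NKT-like gate, by contrast, Cxcr6 stood at 508 CPM [408, 626] in saline, 1057 [939, 1184] at 4 h and 851 [730, 988] at 8 h. Both remimazolam pools were above saline without overlap of these intervals, which take each molecule as independent. The ratio was 2.08 [1.63, 2.67] at 4 h and 1.68 [1.29, 2.19] at 8 h. Positive cells made up 46.3%, 77.0% and 67.2%, while molecules per positive cell stayed at 3.52, 3.83 and 3.87. The saline pool gave only 54 cells of this gate, and 53.7% of them had Cd4 against 35.0% at 4 h and 32.8% at 8 h. The part of this make-up in the ratio, or in those of the other receptors in this gate, was not tested.

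Ccr2 in the same gate was 306 CPM [229, 400] in saline, 419 [347, 502] at 4 h and 626 [523, 745] at 8 h. Here the 8 h pool was the highest, whereas over all T cells it was the 4 h pool. The ratio to saline was 1.37 [0.982, 1.93] at 4 h and 2.05 [1.48, 2.88] at 8 h. With 2 molecules of a lineage gene required, the 4 h ratio was 0.964, so its direction rests on how the gate is drawn.

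Cxcr3 and Ccr9 were also highest at 4 h in the NKT-like gate. Cxcr3 was at 196, 330 and 264 CPM, with a 4 h ratio of 1.68 [1.12, 2.57], or 2.78 with 2 molecules of a lineage gene required. Ccr9 was at 80.8, 272 and 127 CPM, with a 4 h ratio of 3.37 [1.89, 6.45], from 14 molecules in saline and 76 at 4 h. Against 4 h, the 8 h level of Ccr9 was lower, at a ratio of 0.467 [0.287, 0.738].

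The NKT-like gate gave a large part of the differences over all T cells although it held few cells. Of the 24.8 CPM by which Cxcr6 at 4 h exceeded saline over all T cells, 14.3 CPM (57.8%) came from these cells. For Ccr2 the gate gave 4.38 of 14.1 CPM (31.1%) at 4 h and 5.19 of 9.05 CPM (57.3%) at 8 h. For Cxcr3 it gave 28.5% of the 4 h difference, and CD4 memory cells gave 30.7%. For Ccr9 it gave 18.1%. Without the gate the 4 h ratio of Cxcr6 was 1.20 and the 8 h ratio of Ccr2 was 1.23, both below the fold used. With the mix of subsets held fixed at the mean of the 3 pools, the 4 h ratios were 1.43 for Ccr2 and 1.27 for Cxcr6.

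**Figure D3:**
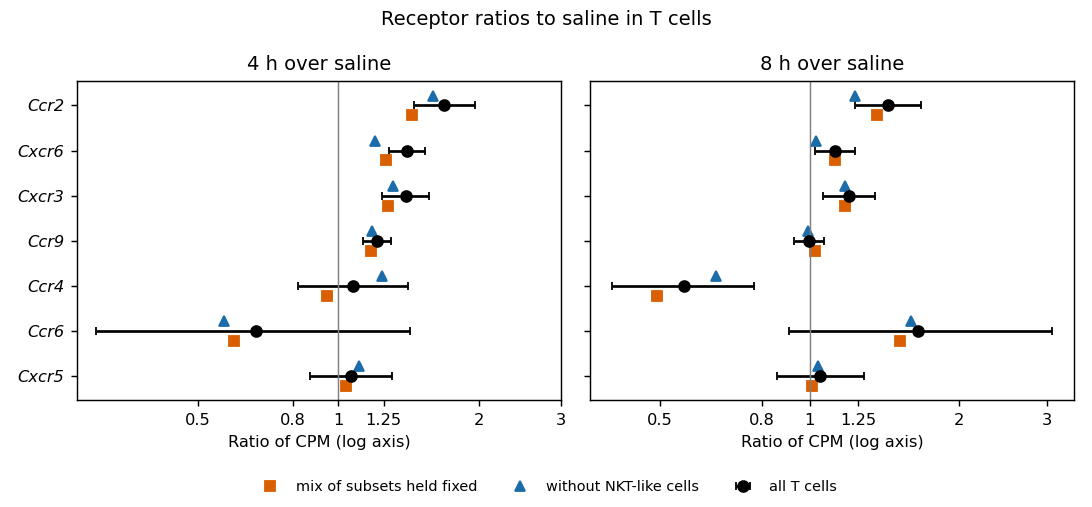
Ratio of each receptor's CPM to saline at 4 h (left) and 8 h (right) on a log axis. Black points are all T cells with exact 95% intervals, squares hold the mix of subsets fixed and triangles leave out the NKT-like gate. The 4 h ratio of Cxcr6 moves from 1.40 to 1.20 without that gate.

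CD4 memory cells had more Ccr2 and Cxcr3 at 4 h. Cxcr3 was at 139 CPM in saline, 238 at 4 h and 158 at 8 h, a 4 h ratio of 1.71 [1.24, 2.38] from 58 and 121 molecules. The 8 h ratio of 1.14 [0.789, 1.64] did not part from 1. Ccr2 in these cells was at 81.5, 132 and 126 CPM, with ratios of 1.62 [1.05, 2.52] and 1.54 [0.989, 2.44], from 34, 67 and 55 molecules. Few cells carried these counts, with Ccr2 in 10, 26 and 16 cells. T cells with no molecule of a lineage gene, which were 13.5% of T cells and cannot be placed, also had more Ccr2. They had 21.4, 52.9 and 34.9 CPM, with ratios of 2.47 [1.64, 3.79] and 1.63 [1.05, 2.58], and gave 25.3% of the 4 h difference against 15.9% from CD4 memory cells. Cxcr6 in them was at 34.0, 51.0 and 54.9 CPM, with ratios of 1.501 [1.05, 2.16] and 1.62 [1.14, 2.31].

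Ccr4 at 8 h was lower in CD4 memory cells, while in effector-type Foxp3+ cells the pools overlapped. In CD4 memory cells Ccr4 was at 83.9 CPM in saline, 76.6 at 4 h and 25.2 at 8 h, from 35, 39 and 11 molecules. The 8 h ratio there was 0.30 [0.137, 0.604]. In effector-type Foxp3+ cells, where Ccr4 was highest, it was at 125, 131 and 114 CPM, and the 8 h ratio was 0.909 [0.528, 1.58]. The intervals of these ratios overlapped, and their difference was not tested. In the NKT-like gate Ccr4 was lower than in saline at both times, at 92.4, 10.7 and 4.89 CPM from 16, 3 and 1 molecules. Its ratios there were 0.116 [0.0217, 0.406] at 4 h and 0.0530 [0.00126, 0.341] at 8 h. Cd4 was in 53.7% of the cells of this gate in saline, 35.0% at 4 h and 32.8% at 8 h. The part of this in the Ccr4 ratios was not tested. Of the total 8 h difference in Ccr4 over all T cells, -3.39 CPM, CD4 memory cells gave 51.2% and the NKT-like gate 31.8%.

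Follicular helper-like cells held more Cxcr5 molecules at 8 h, in few cells. It was at 87.7 CPM in saline, 113 at 4 h and 186 at 8 h, from 23, 24 and 50 molecules. The 8 h ratio was 2.12 [1.27, 3.64], with 13 of 67 cells positive in saline and 20 of 72 at 8 h. The interval takes each molecule as independent, although the 50 molecules at 8 h lay in those 20 cells. Cxcr3 in the same cells was 130, 80.2 and 201 CPM, and both of its ratios to saline included 1. Over all T cells Cxcr5 stayed level: these cells added 1.86 CPM at 8 h against saline, while CD8 cells with 2 or more list genes gave -1.22 CPM and CD4 memory cells -0.516 CPM, for a total difference of 0.695 CPM.

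In effector-type Foxp3+ cells Cxcr3 was 139, 131 and 74.7 CPM, an 8 h ratio of 0.537 [0.292, 0.970]. Ccr2 in them was 227, 272 and 164 CPM, with intervals of both ratios that included 1. Ccr9 had no molecule in saline and 20 at 8 h, all of them in 1 cell, so that value describes that cell. For CD4 cells with no list gene, Ccr9 was 7.28, 18.98 and 9.78 CPM, a 4 h ratio of 2.61 [1.42, 5.01]. Trdc+ cells had more Cxcr3 at 4 h, at 109 CPM against 50.6 in saline, a ratio of 2.15 [1.11, 4.42].

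**Figure D4:**
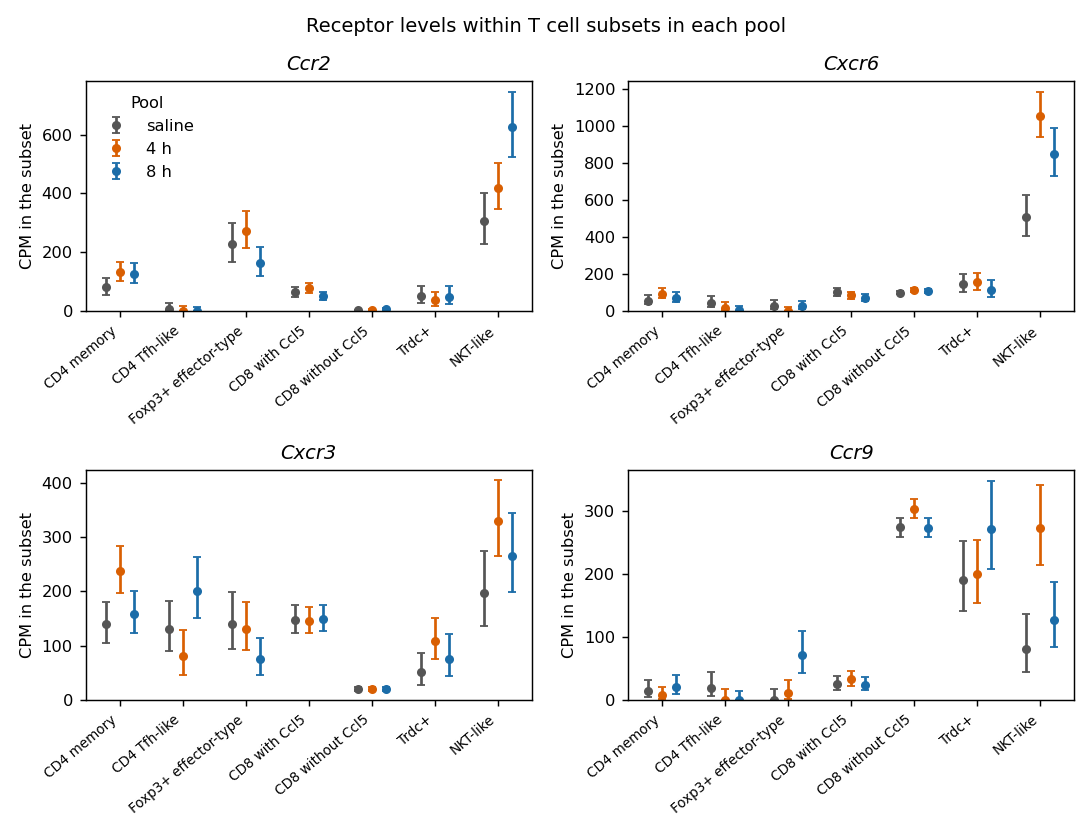
Levels of Ccr2, Cxcr6, Cxcr3 and Ccr9 in CPM within selected T cell subsets of the saline, 4 h and 8 h pools, with exact 95% intervals as bars. In the NKT-like gate Cxcr6 is 508 CPM in saline and 1057 CPM at 4 h, and Cxcr3 in CD8 cells is level across pools.

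Receptors were found together in single cells in a patterned way. Among T cells with a Ccr2 molecule, 50.7% also had Cxcr6 and 43.9% also had Cxcr3, against 10.4% and 6.31% of cells without Ccr2. Ccr2 cells were deeper, with a median of 3116 molecules against 2510, and at a fixed 1500 molecules per cell the shares with Cxcr6 were 40.2% and 6.71%. Ccr4 cells had Ccr2 in 29.7% of cases, against 2.77% of cells without Ccr4. Of the 50 Ccr6 cells, 18 had Ccr2 and 15 had Ccr4, where 3.10% and 1.23% of all T cells did. Ccr9 cells seldom had Cxcr5, at 0.791% against 3.18% without Ccr9, or Cxcr3, at 3.69% against 8.24%, although they had Cxcr6 in 25.2%. The subsets differ in the receptors they carry, and the part of this in the shares over all T cells was not tested.

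Within the NKT-like gate 94 of 147 Cxcr6 cells (63.9%) had Ccr2, against 25.7% of the cells without Cxcr6, and at fixed depth the shares were 48.5% and 26.9%. Of 51 Ccr9 cells in the gate, 49 had Cxcr6, which was in 147 of all 221 cells of the gate. In effector-type Foxp3+ cells, where Ccr2 was at 220 CPM, 22 of 62 Ccr4 cells had Ccr2. That count is given without the share in cells without Ccr4, so it does not show that the 2 receptors go together there. In CD4 memory cells Cxcr3 was found with Ccr2 in 18.7% against 8.77% of cells without Cxcr3, but at fixed depth the shares were 9.10% and 8.13%.

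A molecule of at least 1 of the 7 receptors was found in 32.8% of T cells, and 3 or more receptors in 264 cells (1.69%). No T cell had more than 4. In the NKT-like gate 85 of 221 cells (38.5% [32.0, 45.2]) had 3 or more. By pool this was 13 of 54 in saline (24.1% [13.5, 37.6]), 48 of 100 at 4 h (48.0% [37.9, 58.2]) and 24 of 67 at 8 h (35.8% [24.5, 48.5]). The 4 h share was above saline with intervals that did not overlap. Naive-type CD4 cells had any receptor in 3.24% of cells, and CD8 cells with no list gene in 50.9%, nearly all of it Ccr9 or Cxcr6.

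**Figure D5:**
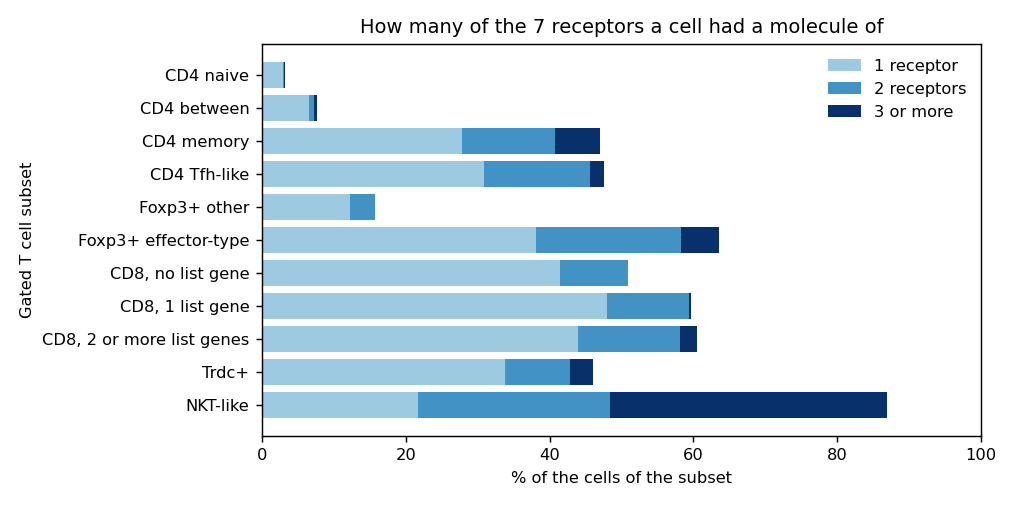
Share of the cells of each gated subset with a molecule of 1, 2, or 3 or more of the 7 receptors, in percent. In the NKT-like gate 38.5% of cells had 3 or more.

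In conventional CD4 cells the receptors were set against single molecules of fate factors. Tbx21 encodes T-bet, the factor of type 1 helper cells. In 85 cells with Tbx21, Cxcr3 was at 298 CPM and in 54.1% of cells, against 26.1 CPM and 4.04% of 5316 cells without it, and at fixed depth the shares were 34.2% and 2.76%. Gata3 encodes the type 2 helper factor, and 974 cells with it had 19.5 CPM of Ccr4 against 5.59 CPM without. The share of Gata3 cells with Ccr4 was 4.46% in saline, 5.02% at 4 h and 0.940% at 8 h. Bcl6, the follicular helper factor, went with 45.7 CPM of Cxcr5 against 11.6 CPM. These pairs were not particular to a factor. Cells with Tbx21 also had more Ccr4, at 45.8 CPM against 7.47 CPM, and more Cxcr5, at 45.8 CPM against 12.5 CPM. Cxcr3 was at 58.1 CPM with Gata3 against 26.5 CPM without, and at 45.7 CPM with Bcl6 against 32.3 CPM. Cells with a factor were deeper, at a median of 3133 against 2410 molecules for Tbx21.

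The genes most like each receptor across 13 subsets were ranked by Pearson's r of log CPM over 9962 genes, as a description, since the subsets share libraries and depth. For Ccr2 the closest was Itga2 (r = 0.967), which encodes an integrin alpha chain that binds collagen. Cxcr6 was closest to Cd226 (r = 0.966), an activating receptor of T and natural killer cells. Ccr9 was closest to Tlr12 (r = 0.963) and Eng (r = 0.954). For Ccr4 it was Aplp1 (r = 0.980), for Ccr6 it was Dhrs3 (r = 0.977), for Cxcr3 it was Mapre2 (r = 0.954) and for Cxcr5 it was Gapdh (r = 0.980). Among the members themselves Ccr4 and Ccr6 were the most alike (r = 0.849), and Ccr4 and Ccr9 had the lowest value (r = -0.391). Ccr6 had only 64 molecules, fewer than the minimum set for the ranked genes. It lay above the 10 CPM prior only in effector-type Foxp3+ cells, at 23.3 CPM on 18 molecules. The next subset, CD4 memory cells, was at 8.07 CPM. The r of Ccr6 with Dhrs3 and with Ccr4 leans on the Foxp3+ subset and was not recomputed without it.

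Other genes of the chemokine system were counted in 4 lists, which were chosen with earlier results of these data known. For comparison with the counts below, 6.07% of all genes with enough molecules were higher at 4 h and 4.64% at 8 h. The shares of all genes that were lower are given above with the members. No list was tested against these shares. Of 21 other chemoattractant receptors, 8 had enough molecules, and 1 was higher and 1 lower at 4 h, 2 higher and 1 lower at 8 h. Cxcr4, which retains cells by Cxcl12, was the lower one at both times, with 72.9, 56.0 and 50.1 CPM. Ccr10 was higher at 4 h (1.43, 2.66 and 1.62 CPM), and Cx3cr1 (1.94, 2.03 and 4.35 CPM) and S1pr5 (1.36, 1.61 and 2.88 CPM), both genes of cytotoxic cells, were higher at 8 h. Ccr7, the receptor of naive T cells, was 266, 252 and 266 CPM and within the fold. The list's median ratio was 1.00 at 4 h and 1.03 at 8 h.

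Of 22 ligand genes, 5 had enough molecules, 3 of which were higher and 1 lower at 4 h, and 3 higher and none lower at 8 h. The list's median ratio was 1.27 at 4 h and 1.67 at 8 h. Xcl1, a chemokine of activated T and natural killer cells, had 18.9, 27.9 and 34.1 CPM. Ccl5 had 277, 353 and 336 CPM, with a 4 h ratio of 1.27. Cxcl10, a ligand of Cxcr3, had 1.94, 3.71 and 3.23 CPM, and 19 of its 53 molecules at 4 h were in 1 cell. Ccl4 had 4.45, 2.03 and 7.58 CPM, and 32 of its 108 molecules at 8 h were in 1 cell. The Ccr4 ligand Ccl22 and the Cxcr6 ligand Cxcl16 had no molecule in saline, and 25 and 24 at 4 h in 3 and 4 cells, with 17 and 18 of them in 1 cell each.

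Of 32 genes for receptor signalling, such as G proteins, arrestins and integrin activators, 29 were measured, and 3 were higher at 4 h and 2 at 8 h, with none lower. Rgs1 and Rgs16, which damp receptor signals by speeding G protein shut-off, were higher at both times by the fold used. Rgs1 had 17.6, 27.7 and 25 CPM and Rgs16 had 3.44, 4.83 and 6.46 CPM. The interval of the 4 h ratio of Rgs16, 1.40 [0.956, 2.07] on 48 and 69 molecules, included 1. Plcb3 was higher at 4 h. The median ratio was 0.999 at 4 h and 1.01 at 8 h. Of 17 fate factors 16 were measured, 5 were higher at 4 h, and 5 were higher and 1 lower at 8 h, with medians of 1.07 and 1.06. Tbx21 (11.5, 18.1 and 16.1 CPM) and Rora (26.7, 35.7 and 35.8 CPM) were higher at both times by the fold used. So were Zbtb16 (3.08, 4.62 and 4.78 CPM) and Ahr (2.44, 3.50 and 3.93 CPM), on few molecules. The interval of the 4 h ratio of Ahr, 1.43 [0.910, 2.29] on 34 and 50 molecules, included 1. That of Zbtb16 began at 1.004, on 43 and 66 molecules. Maf was higher at 8 h, with 72.2, 78.2 and 94.0 CPM, Id2 at 4 h, and Bcl6 lower at 8 h, with 19.4, 18.1 and 15.3 CPM. Zbtb16 is also one of the genes that gate the NKT-like cells.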

How the data were processed

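The authors deposited integer molecule counts per cell and gene, made, per the file headers, with the BD Rhapsody WTA Multiplex pipeline 1.9.1 on GRCm38 with GENCODE M19, as unique molecular identifiers after error correction. The aligner is not named in the labels or headers. The authors' calls gave 1 tag in use to 16174 of 17299 putative cells. Left out were 1063 multiplets, 60 undetermined cells and 2 cells of another tag. Cells with at least 200 genes and under 25% mitochondrial molecules were kept (16123), of which 454 B cells, 42 myeloid cells and 31 cells without T cell genes were set aside.

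Multiplet calls removed doublets between pools. No caller was run for doublets within a pool, and an alternative left out the 3% of cells with most molecules. Free RNA was not corrected. Molecules were summed per subset and pool and divided by their total. Intervals are exact Poisson for CPM, Clopper-Pearson for shares and conditional-binomial for ratios. A zero count allows up to 3 counts. With 1 pool per treatment there was no test.

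Members, gene lists and gates were chosen with earlier results of these data known. Named were all members, and the genes of each list past the fold. Some items are not reported here. Likeness used genes with at least 100 molecules and a prior of 10 CPM. The calculations were tested on simulated data. Software was Python 3.11.15, numpy 2.4.6, pandas 2.3.3, scipy 1.17.1, matplotlib 3.10.9, and R 4.3.3 with edgeR 4.0.16 for trimmed mean of M-values (TMM) factors.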

Additional observations from a re-analysis of the deposited data

Results flagged for a closer look

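Ccr6 in T cells lay on opposite sides of saline at 4 h and 8 h, with a ratio to saline of 0.667 at 4 h and 1.65 at 8 h. The ratios rest on 19, 13 and 32 molecules, and the interval of each includes 1. The 8 h pool over the 4 h pool gave 2.47 [1.26, 5.13], an interval of counting error only, and no test between pools was possible.

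Ccr6 and Cxcr5 had molecules in the B cells that came with the sorted cells and enter no comparison above. Ccr6 was at 67.9 CPM and in 15.6% of 454 B cells, against 0.0782% of CD8 cells with no list gene. Cxcr5 was at 217 CPM and in 44.1% of the B cells, above the 131 CPM of follicular helper-like T cells. Both receptors are known from B cells.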

How the results depend on the processing

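The ratios over all T cells were recomputed with stricter cells, raw molecules, TMM factors, molecules per cell, each cell weighted equally, the deepest cells or the single highest cell left out, the subset mix held fixed and the NKT-like gate left out. Of the 14 ratios to saline, 12 kept their direction under all of these. Ccr4 at 4 h was 0.947 with the mix held fixed, and Ccr9 at 8 h, near 1, lay between 1.01 and 1.02 with stricter cells, raw molecules or the mix held fixed. Ccr6 at 4 h was 0.904 without the deepest cells. With the mix held fixed the 4 h ratio was 1.43 for Ccr2 and 1.27 for Cxcr6. Without the NKT-like gate the 8 h ratio of Ccr2 was 1.23 and the 4 h ratio of Cxcr6 was 1.20. With 2 molecules of a lineage gene needed, the 4 h ratio of Ccr2 in the NKT-like gate turned from 1.37 to 0.964, on 99 molecules, that of Cxcr3 there went from 1.68 to 2.78, the 8 h ratio of Cxcr6 in Trdc+ cells went from 0.779 to 0.362, and Ccr9 was highest in CD8 cells with no list gene (346 CPM) rather than 1 (333 CPM). The other 6 receptors kept their highest subset. By share of positive cells at fixed depth, the NKT-like gate was 7.49 rather than 11.7 times all T cells for Cxcr6 and 7.52 rather than 6.42 times for Cxcr3. With at least 10 molecules in place of 50, 19 of 69 listed genes were higher at 4 h, against 12 of 58, since more genes enter. Over all genes 6.07% were higher at 4 h with at least 50 molecules. The share over all genes with at least 10 was not computed, so the 19 of 69 cannot be set against it. CD8 cells with 2 or more list genes and a Ccl5 molecule, a setting chosen after seeing the data, had 65.5 CPM of Ccr2, 151 of Cxcr3, 31.9 of Cxcr5, 86.5 of Cxcr6 and 24.2 of Ccr9. Depth limits Ccr6 most, with 64 molecules, and 1 molecule is 0.0717 CPM of the saline T cells.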

Other observations

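Of the genes beside the receptors on chromosome 9, picked after their values were seen, Lztfl1 encodes a protein of ciliary transport and had 28.0, 36.3 and 32.5 CPM in the T cells of the saline, 4 h and 8 h pools. Fyco1, an adaptor for autophagosome transport, had 56.0, 61.8 and 56.5 CPM. Both were highest at 4 h, as were Ccr9, Cxcr6 and Ccr2, and over all 10765 genes with at least 50 molecules in the 3 pools together 40.1% were highest at 4 h. Lztfl1 overlaps Ccr9 and Fyco1 overlaps Cxcr6 on the opposite strand. Xcr1, a receptor known from cross-presenting dendritic cells, had 1, 18 and 1 molecules, the 18 in 9 cells of the 4 h pool.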
